A study of Mus musculus with 12 samples.

Results

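The large heat shock proteins and their cochaperones were followed in mouse quadriceps, the large thigh muscle, by messenger RNA sequencing. Members were all rows of the deposited gene count table whose symbols belong to the Hspa, Hsph, Hsp90, Dnaja, Dnajb, Dnajc or Cct series, together with Tcp1, Hspd1, Hspe1 and the heat shock factors Hsf1 and Hsf2. Rows not annotated as protein coding were left out, which removed 4 pseudogenes. Of 43346 listed rows, 77 were members, with 76 distinct symbols because Dnajc19 is listed under 2 gene identifiers. Symbols were matched by case, so a further protein-coding row spelled DNAJC19 was not a member. Of the 77 rows, 68 had enough reads to be tested and 9 did not.

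Chaperones of the HSP70 family bind unfolded stretches of protein and release them in a cycle driven by ATP. J-domain proteins deliver the substrates and trigger ATP hydrolysis, and HSP110 proteins and other exchange factors reset the cycle by removing ADP. HSP90, the mitochondrial chaperonin of Hspd1 and Hspe1, and the cytosolic chaperonin TRiC (also called CCT) take over particular substrates, among them myosin, mitochondrial matrix enzymes, actin and tubulin. Hsf1 is the transcription factor that raises the inducible members when proteins misfold, and the constitutive members are made all the time. In skeletal muscle the system serves sarcomere assembly and repair after heat, exercise or stretch.

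All mice were C57BL/6, and there were 4 libraries in each of 3 groups. The D+Q mice were 24 months old and had been gavaged with 5 mg/kg dasatinib and 50 mg/kg quercetin on 3 consecutive days in each 2 weeks, beginning at 20 months. Dasatinib inhibits tyrosine kinases, quercetin is a flavonol from plants, and the labels call the pair a senolytic, meaning an agent directed at senescent cells. The old vehicle mice were 24 months old and received, on the same schedule, the carrier of ethanol, polyethylene glycol and Phosal 50. The young mice were 6 months old. No gavage is stated for them, so the effects of age and of gavage cannot be told apart between old vehicle and young. The sex of the mice is not stated, nor whether every library is a different mouse, and the p-values below therefore measure the spread between these libraries, which may be technical.

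Libraries held between 26715140 and 49792488 reads, and the members took between 0.862% and 1.39% of them. A count of 3 reads corresponded to between 0.0561 and 0.106 CPM (reads scaled to a common library size, with TMM factors). All 8 muscle fibre markers were found and tested, and their summed level ran from 84150 to 137700 CPM in D+Q muscle, from 86600 to 109900 CPM in old vehicle and from 78790 to 125000 CPM in young libraries. Young replicate 4 stood apart. It was the highest of the 12 libraries for 24.6% of the 16146 tested genes and the lowest for 25.9%, so results that rest on it are given with and without it. In bulk muscle, fewer cells of a type and less RNA per cell cannot be told apart.

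Levels between genes were compared on the deposited RPKM values, which divide by the gene length listed in the annotation. Hsp90ab1, the constitutive cytosolic HSP90, was the most abundant member, with a mean of 675 RPKM over the 12 libraries. Hspa8, the constitutive cytosolic HSP70, followed at 405 RPKM, and Hspa9, the HSP70 of the mitochondrial matrix, at 260 RPKM. Hspd1, the subunit of the mitochondrial chaperonin ring, had 139 RPKM, Dnaja2, a cytosolic J-domain cochaperone, 133 RPKM, and Cct6a, the zeta subunit of TRiC, 104 RPKM. These 6 were the members above 100 RPKM, and 46 of the 77 rows were above 10 RPKM. The most abundant housekeeping forms thus covered the cytosol and the mitochondria.

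Other classes were led by members of lower level. Hspa5, the HSP70 of the endoplasmic reticulum also called BiP, had 79.8 RPKM and Hsp90b1, its HSP90 counterpart GRP94, 61.0 RPKM. Dnajc15, a J-domain protein of the inner mitochondrial membrane, led class C with 81.5 RPKM at a listed length of 648 bases. The Dnajc19 rows had 80.2 and 26.8 RPKM from nearly the same reads, with listed lengths of 333 and 1015 bases. Dnajb4, a cytosolic class B cochaperone, had 38.8 RPKM, and Hspa4, an HSP110, 37.0 RPKM. The heat shock factors were close in level, with 20.0 RPKM for Hsf1 and 17.9 RPKM for Hsf2. Levels of the heat-inducible forms were spread, with 2.14 RPKM for Hspa1b, 3.21 RPKM for Hspa1a, 7.93 RPKM for Dnaja1, 8.56 RPKM for the inducible HSP40 Dnajb1, 25.8 RPKM for Hsph1 and 31.2 RPKM for Hsp90aa1. Hspa2, an HSP70 best known for its need in male meiosis in the mouse, had 1.79 RPKM.

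The 9 untested rows were Dnajb3, Dnajb7, Dnajb8, Dnajb13, Dnajc5b, Dnajc5g, Dnajc6, Dnajc22 and Cct8l1, and each lay under 0.1 RPKM. Dnajb8 had 0 reads in all 12 libraries. Dnajb13, an axonemal member of cilia and sperm tails, had 32 reads over the D+Q libraries, 24 reads over the old vehicle libraries and 4 reads over the young libraries.

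**Figure D1:**
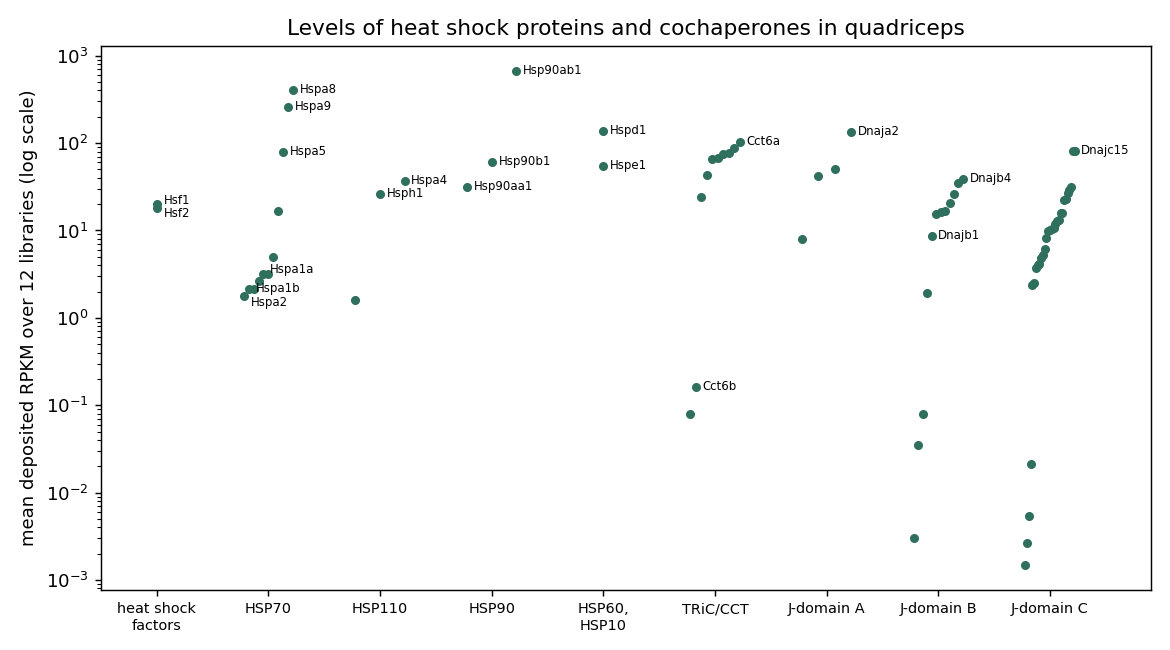
Mean deposited RPKM over 12 libraries (log axis) of each member, grouped by role; each point is 1 row, and Dnajb8, at 0, is not drawn. Hsp90ab1 and Hspa8 stand highest, at 675 and 405 RPKM, while the inducible Hspa1a and Hspa1b lie near 3.21 and 2.14 RPKM.

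The comparison of old vehicle with young muscle asked what differs with age in this design. Hspa2 was higher in old vehicle muscle, 2.11-fold, and the mitochondrial import J-domain genes Dnajc19 and Dnajc15 were lower there, about 1.40-fold and 1.35-fold. No other member passed the test, which was the quasi-likelihood test of edgeR at a Benjamini-Hochberg adjusted p under 0.05 over all 16146 tested genes. By that rule 1 of 68 tested rows was called higher, 1.47% of them against 1.21% of all tested genes, and 3 rows were called lower, 4.41% against 0.65% of all tested genes. Since 2 of those 3 rows are the Dnajc19 pair, they stand for 2 genes. Limma-voom called the same 4 rows, beside 276 of all 16146 tested genes, and DESeq2 called these and Hspe1, beside 778. At an unadjusted p under 0.05 the members' share was 14.7%, 10 rows, beside a background of 16% of all tested genes. Fold changes were positive for 25 rows and negative for 43, with a median log2 fold change of -0.08 beside -0.01 over all tested genes.

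Hspa2 was the clearest difference. It had 5.11, 5.13, 5.36 and 4.66 CPM in the D+Q libraries, 5.44, 5.80, 6.15 and 5.71 CPM in the old vehicle libraries and 2.98, 2.94, 2.91 and 2.10 CPM in the young libraries. Every old library, treated or not, lay above every young one. The log2 fold change of old vehicle over young was 1.08 ± 0.14 (SE, n = 4 each; edgeR adjusted p = 0.00197). The counts behind it were 869 reads in D+Q, 1037 reads in old vehicle and 416 reads in young libraries. It was called in all 20 other settings tried, with log2 fold changes from 0.96 to 1.12 and an adjusted p of at most 0.0170, reached when young replicates 3 and 4 were both left out. Hspa2 lies on chromosome 12 from 76404176 to 76406934 of mm10, and no other listed gene overlaps it.

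Dnajc19 encodes TIM14, the J-domain subunit of the motor that pulls proteins into the mitochondrial matrix together with Hspa9. Its longer row had 25.9, 24.6, 23.7 and 27.2 CPM in the D+Q libraries, 24.1, 24.4, 22.3 and 22.5 CPM in the old vehicle libraries and 29.9, 29.7, 34.5 and 36.7 CPM in the young libraries. All young libraries lay above all old ones. Old vehicle was lower than young by a log2 fold change of -0.49 ± 0.10 (SE; edgeR adjusted p = 0.0224). The shorter row gave the same values within 2.25% of its reads in each library, because the listed genes overlap over 3769 bases and shared the same reads. The pair is read as 1 signal, although the counts and shares of rows hold it as 2 rows. Of the 77 rows, 37 overlap another listed gene. The row spelled DNAJC19, with 12511 reads over the 12 libraries, overlaps both by 2527 bases, and how many reads it shares with them was not tested. The longer Dnajc19 row also overlaps Fxr1, which is more highly expressed. The shorter row does not overlap Fxr1 and held nearly the same reads, with a log2 fold change of -0.49 ± 0.10 (SE) for old vehicle over young. A processed pseudogene of Dnajc19 held 60 to 114 reads a library. The library kit keeps strand, but the strand setting of the counting is not given in the sources used here, so the share of reads from overlapping genes is uncertain.

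Dnajc15, also called MCJ, is a related J-domain protein of the same membrane. It had 49.9, 46.5, 51.1 and 51.8 CPM in the D+Q libraries, 47.4, 47.7, 45.5 and 44.3 CPM in the old vehicle libraries and 59.2, 57.4, 62.3 and 69.9 CPM in the young libraries. The young libraries again lay above all the others. The log2 fold change of old vehicle over young was -0.43 ± 0.09 (SE; edgeR adjusted p = 0.0262). Both calls depended on the libraries used. Dnajc19 was called in 10 and Dnajc15 in 9 of the 20 other settings, and leaving out young replicate 3 or 4, or any old vehicle library, ended both calls. Without young replicate 4 the log2 fold changes were -0.43 for the longer Dnajc19 row and -0.37 for Dnajc15, and without young replicate 1 the call of Dnajc15 alone ended.

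The mitochondrial chaperonin gave values of the same sign. Hspe1, which encodes the HSP10 lid of the chaperonin, had 65.3, 67.5, 65.6 and 70.1 CPM in the D+Q libraries, 77.7, 71.6, 68.2 and 72.1 CPM in the old vehicle libraries and 95.5, 85.1, 88.6 and 128 CPM in the young libraries. The young group did not overlap either old group, but the test did not call the difference (log2 fold change -0.46 ± 0.12 SE, edgeR adjusted p = 0.0841). DESeq2 called it, as did edgeR without young replicate 2. Over all genes these settings gave 778 and 1022 calls, against 300 in the main fit. Hspd1, which encodes the HSP60 ring, had 284, 334, 294 and 376 CPM in D+Q muscle, 374, 362, 329 and 319 CPM in old vehicle and 384, 317, 441 and 560 CPM in young libraries. These ranges overlapped, with a log2 fold change of -0.30 ± 0.16 (SE; edgeR adjusted p = 0.362) for old vehicle over young.

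**Figure D2:**
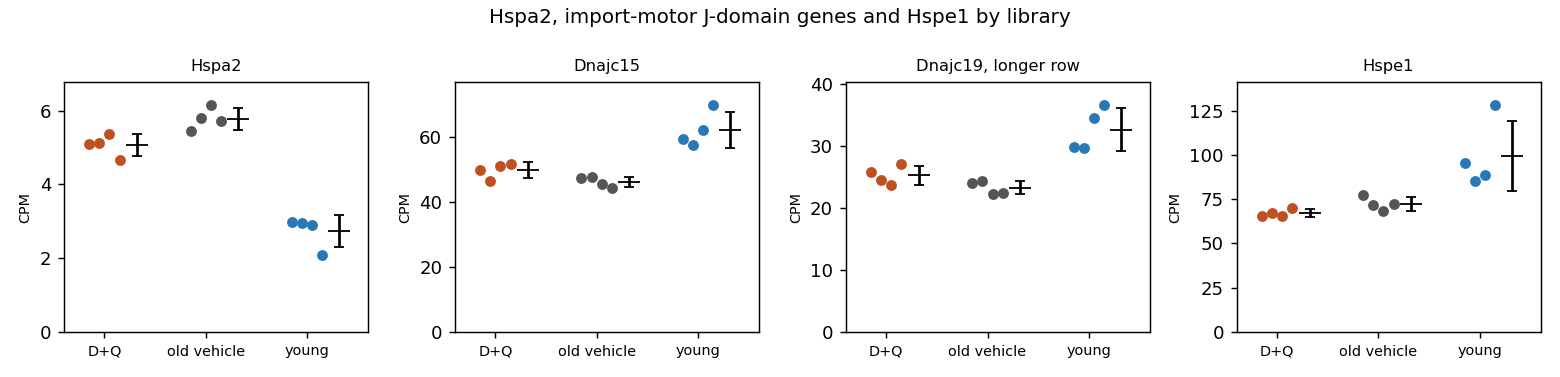
CPM of Hspa2, Dnajc15, the longer Dnajc19 row and Hspe1 in each library (points) with the mean and SD of the 4 libraries of a group (bars), axes from 0. Hspa2 is lower in all young libraries (2.10 to 2.98 CPM) than in all old ones, and the other genes are higher in all young libraries than in all old ones.

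Hspe1 and Hspd1 lie head to head on chromosome 1, and their listed genes overlap by 112 bases. Promoter windows were taken from RefSeq for assembly GRCm38.p6 and matched 61 of the 76 symbols. The windows cover the 250 bases before the RefSeq start nearest each listed gene's start. These starts can differ, by up to 44081 bases for Dnaja3. The Hspe1 window is shown because it holds the densest run of the motif that heat shock factors bind, inverted GAA units spaced by 2 bases; capitals mark that run, on chr1:55087898-55088147, plus strand.
Hspe1: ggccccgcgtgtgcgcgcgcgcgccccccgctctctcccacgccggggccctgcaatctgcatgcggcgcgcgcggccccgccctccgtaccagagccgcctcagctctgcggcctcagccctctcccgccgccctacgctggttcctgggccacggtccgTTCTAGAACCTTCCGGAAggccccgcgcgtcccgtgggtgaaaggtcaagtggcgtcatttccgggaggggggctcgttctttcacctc
The run begins 89 bases before the Hspe1 start. RefSeq gives Hspd1 2 starts, of which 1 lies 216 bases from that of Hspe1 with the run between them, and the other lies inside Hspe1. Motifs were searched as GAANNTTC or TTCNNGAA, which each read the same on both strands, and as a longer form of 3 units, in which a short match is followed, after 2 more bases, by GAA or TTC in alternation, so that every long match contains a short one. The short form was present in 10 of 61 member windows, 16.4%, beside 12.1% of all 18144 windows. The long form was present in 2 of 61, Hspe1 and Dnajb6, which is 3.28% beside 0.397% of all windows. Hspd1 was scored from its start inside Hspe1, and that window held neither form. The run shown for Hspe1 lies before the other Hspd1 start, whose window was not counted. A match is a description of letters and not a measured binding site.

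The window of Hspa2, the called HSP70, held neither form, and it is printed as the counterpart to the inducible HSP70 genes below, on chr12:76404120-76404369, plus strand.
Hspa2: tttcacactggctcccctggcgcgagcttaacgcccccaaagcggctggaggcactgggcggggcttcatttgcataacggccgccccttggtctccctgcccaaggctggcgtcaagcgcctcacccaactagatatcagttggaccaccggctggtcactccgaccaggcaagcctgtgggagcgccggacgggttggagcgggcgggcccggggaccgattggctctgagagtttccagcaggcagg
The RefSeq start of Hspa2 lies 194 bases inside the listed gene. The windows of Dnajc15, Dnajc19 and Dnajb1 held neither form either, within these letters and this length. The symbols without a window were Cct4, Dnajc2, Dnajc5, Dnajc5b, Dnajc11, Dnajc12, Dnajc18, Dnajc22, Dnajc30, Hsf1, Hsp90aa1, Hsp90ab1, Hspa8, Hspa9 and Hspa13.

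Separation between groups without overlap was also counted. Old vehicle lay wholly above young for 2 tested rows, Hspa2 and Cct3, 2.94% beside 3.97% of all tested genes. It lay wholly below for 5 rows, the Dnajc19 pair, Dnajc15, Hspe1 and Dnajc21, 7.35% beside 5.39% of all tested genes. Both shares were near the background. Cct3, the gamma subunit of TRiC, had 143, 157, 152 and 136 CPM in D+Q muscle, 157, 182, 156 and 186 CPM in old vehicle and 149, 139, 119 and 150 CPM in young libraries. Its lowest old vehicle library exceeded the highest young one by a small margin (log2 fold change 0.29 ± 0.10 SE, edgeR adjusted p = 0.199). Dnajc21, a cochaperone of ribosome assembly, had 88.6, 100.03, 97.3 and 118 CPM in D+Q muscle, 97.9, 96.6, 94.8 and 94.7 CPM in old vehicle and 108, 113, 120 and 140 CPM in young libraries. All old vehicle libraries lay below the lowest young one, and the difference did not pass (log2 fold change -0.33 ± 0.11 SE, edgeR adjusted p = 0.159).

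Among the heat shock factors, Hsf1 had 53.0, 44.7, 51.1 and 35.2 CPM in D+Q muscle, 37.0, 37.4, 43.7 and 51.8 CPM in old vehicle and 37.4, 48.2, 25.6 and 23.8 CPM in young libraries. The 3 groups overlapped, with the lowest values in young replicates 3 and 4. The log2 fold change of old vehicle over young was 0.33 ± 0.22 (SE; edgeR adjusted p = 0.441). Hsf2 averaged 44.7 ± 7.5009 CPM in D+Q muscle, 50.5 ± 7.25 CPM in old vehicle and 44.4 ± 9.82 CPM in young libraries (SD, n = 4 each), differences within the spread of each group.

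Of the 11 HSP70 rows, 8 had negative fold changes for old vehicle over young and none of these was called. Hspa8 averaged 1603 ± 235 CPM in D+Q muscle, 1697 ± 224 CPM in old vehicle and 1724 ± 418 CPM in young libraries. Hspa5 averaged 326 ± 60.9 CPM in D+Q muscle, 319 ± 41.8 CPM in old vehicle and 363 ± 102 CPM in young libraries. Hspa9, the HSP70 partner of the import motor, averaged 941 ± 186 CPM in D+Q muscle, 948 ± 61.5 CPM in old vehicle and 1158 ± 211 CPM in young libraries (edgeR adjusted p = 0.369 for old vehicle against young). Each of the 3 was highest in young replicate 4. Hspa12a, an atypical HSP70 relative, had 13.1, 12.007, 14.5 and 14.5 CPM in D+Q muscle, 14.2, 13.1, 16.2 and 9.56 CPM in old vehicle and 15.9, 18.9, 21.3 and 15.6 CPM in young libraries. Old vehicle replicate 3 lay inside the young range, and the log2 fold change of -0.43 ± 0.16 (SE) was not called (edgeR adjusted p = 0.220).

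Both cytosolic HSP90 genes had overlapping groups. Hsp90ab1 averaged 2061 ± 102 CPM in D+Q muscle, 2159 ± 185 CPM in old vehicle and 1865 ± 215 CPM in young libraries, with a log2 fold change of 0.21 ± 0.11 (SE; edgeR adjusted p = 0.345) for old vehicle over young. The inducible Hsp90aa1 had the opposite sign at -0.18 ± 0.34 (SE; edgeR adjusted p = 0.786). The ratio of Hsp90aa1 to Hsp90ab1 on the RPKM scale was 0.0374 ± 0.0102 in D+Q, 0.0442 ± 0.0158 in old vehicle and 0.0582 ± 0.0318 in young libraries (SD, n = 4). The highest young ratio, 0.103, was well above the next, 0.0560, and without it the young mean was 0.0433. The 3 groups overlapped. Hsp90b1 had a log2 fold change of -0.28 ± 0.16 (SE; edgeR adjusted p = 0.397) for old vehicle over young.

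None of the 9 tested TRiC rows was called by edgeR, limma-voom or DESeq2, and 1, Cct3, had an unadjusted p under 0.05 in edgeR. Old vehicle over young was positive for 4 of them and negative for 5, in a range of log2 fold changes from -0.30 in Cct4 to 0.29 in Cct3. Tcp1, the alpha subunit, had 281, 297, 290 and 378 CPM in D+Q muscle, 314, 327, 288 and 288 CPM in old vehicle and 323, 311, 383 and 458 CPM in young libraries. Signs differed between subunits of this ring. Cct5 and Cct7 gave 0.22 ± 0.12 and 0.23 ± 0.11 (SE) while Tcp1 and Cct4 gave -0.28 ± 0.14 and -0.30 ± 0.15 (SE). Cct2, the beta subunit, ranged from 151 to 186 CPM over the 12 libraries. Cct6b, a zeta form best known from testis, was near the detection limit at 0.150 to 0.447 CPM.

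None of the 4 class A or 9 tested class B rows was called or had an unadjusted p under 0.05 in edgeR. Of 25 tested class C rows 3 were called, 12% beside 1.86% of all tested genes. An unadjusted p under 0.05 was reached by 6 class C rows, 24% beside 16% of all tested genes. Both counts hold the Dnajc19 pair, which shared its reads, as 2 rows. Beside the called rows and Dnajc21, the 6 rows were Dnajc27 and Dnajc28, named after their values were seen. Their log2 fold changes were -0.22 ± 0.09 and -0.32 ± 0.14 (SE, edgeR adjusted p = 0.267 and 0.273) for old vehicle over young. Class B rows included Dnajb6, a suppressor of aggregation whose human gene is mutated in a limb-girdle muscular dystrophy, with a log2 fold change of 0.14 ± 0.11 (SE) for old vehicle over young. Dnajb5 and Dnajb2, cytosolic J-domain cochaperones, gave log2 fold changes of 0.17 ± 0.19 and 0.18 ± 0.13 (SE). Dnajb9 and Dnajc3, J-domain proteins of the endoplasmic reticulum, gave -0.19 ± 0.25 and -0.04 ± 0.13 (SE). Dnajc5, the cysteine string protein of synaptic vesicles, and Dnajc7, which links HSP70 and HSP90, gave 0.03 ± 0.10 and -0.12 ± 0.10 (SE). None of these differences was called.

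Markers of other cell types were read beside these results. The 6 fibroblast and tendon markers summed to 544 to 660 CPM in D+Q muscle and 556 to 726 CPM in old vehicle. In young libraries their sum was 781 to 1006 CPM, so that young libraries were highest, as for Dnajc19, Dnajc15 and Hspe1. By edgeR 1 of the 6 markers was called lower in old vehicle than in young muscle, and 1 lower in D+Q than in young. Col3a1 lay wholly higher in young libraries (214 to 267 CPM, against 82.3 to 133 CPM in old vehicle). Dcn overlapped (457 to 625 and 405 to 555 CPM), as did Scx (0.879 to 1.939 and 1.085 to 2.715 CPM). The 5 red cell markers summed to 14.5 to 86.0 CPM in D+Q muscle, 8.64 to 46.5 CPM in old vehicle and 4.59 to 14.5 CPM in young libraries. The D+Q and young ranges met only at 14.5 CPM, and 2 of the 5 red cell markers were called higher in D+Q than in young muscle by edgeR. The 7 macrophage markers found summed to 96.3 to 133 CPM in D+Q muscle, 106 to 172 CPM in old vehicle and 98.3 to 139 CPM in young libraries. None of these lists had a marker at 0 in every library. The part of these cells in the members' differences was not tested.

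The comparison of D+Q with old vehicle muscle asked what the senolytic treatment changed in old mice. No member was called, and no gene at all, so the share was 0% of all tested genes. No member reached an unadjusted p under 0.05 in edgeR, beside 2.16% of all tested genes, or 349 genes. Limma-voom also called no gene, and DESeq2 called 12 genes, none of them a member. The fold changes of the 68 tested rows were positive for 26 and negative for 42, with a median of -0.05 beside 0.01 over all tested genes, and none exceeded 2-fold. D+Q lay wholly below old vehicle for 1 row, Hspa2, which is 1.47% beside 1.12% of all tested genes.

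The values that came nearest to a difference were small. Hspa2 stood at 4.66 to 5.36 CPM in D+Q against 5.44 to 6.15 CPM in old vehicle libraries, a log2 fold change of -0.19 ± 0.13 (SE; unadjusted p = 0.182). Cct3 had the smallest unadjusted p, 0.0622, with a log2 fold change of -0.21 ± 0.10 (SE), and the top of its D+Q range overlapped old vehicle. The import motor genes had positive values, 0.12 ± 0.10 (SE) for the longer Dnajc19 row and 0.11 ± 0.09 (SE) for Dnajc15, neither called (edgeR adjusted p = 0.9999 for each of these members). The largest fold change was that of the scarce Cct6b, 0.53 ± 0.32 (SE). Hspa4l, an HSP110 best known from testis, gave -0.31 ± 0.23 (SE), and Dnajb14, a J-domain protein of the endoplasmic reticulum membrane, -0.20 ± 0.16 (SE).

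Of the 6 members above 100 RPKM, all but Cct6a gave fold changes smaller than their errors. Log2 fold changes of D+Q over old vehicle were -0.07 ± 0.11 (SE) for Hsp90ab1, -0.08 ± 0.17 (SE) for Hspa8 and -0.01 ± 0.15 (SE) for Hspa9. They were -0.10 ± 0.16 (SE) for Hspd1, -0.04 ± 0.15 (SE) for Dnaja2 and -0.15 ± 0.13 (SE) for Cct6a. Inducible members had wide errors, with -0.30 ± 0.66 (SE) for Hspa1a and -0.39 ± 0.76 (SE) for Hspa1b.

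**Figure D3:**
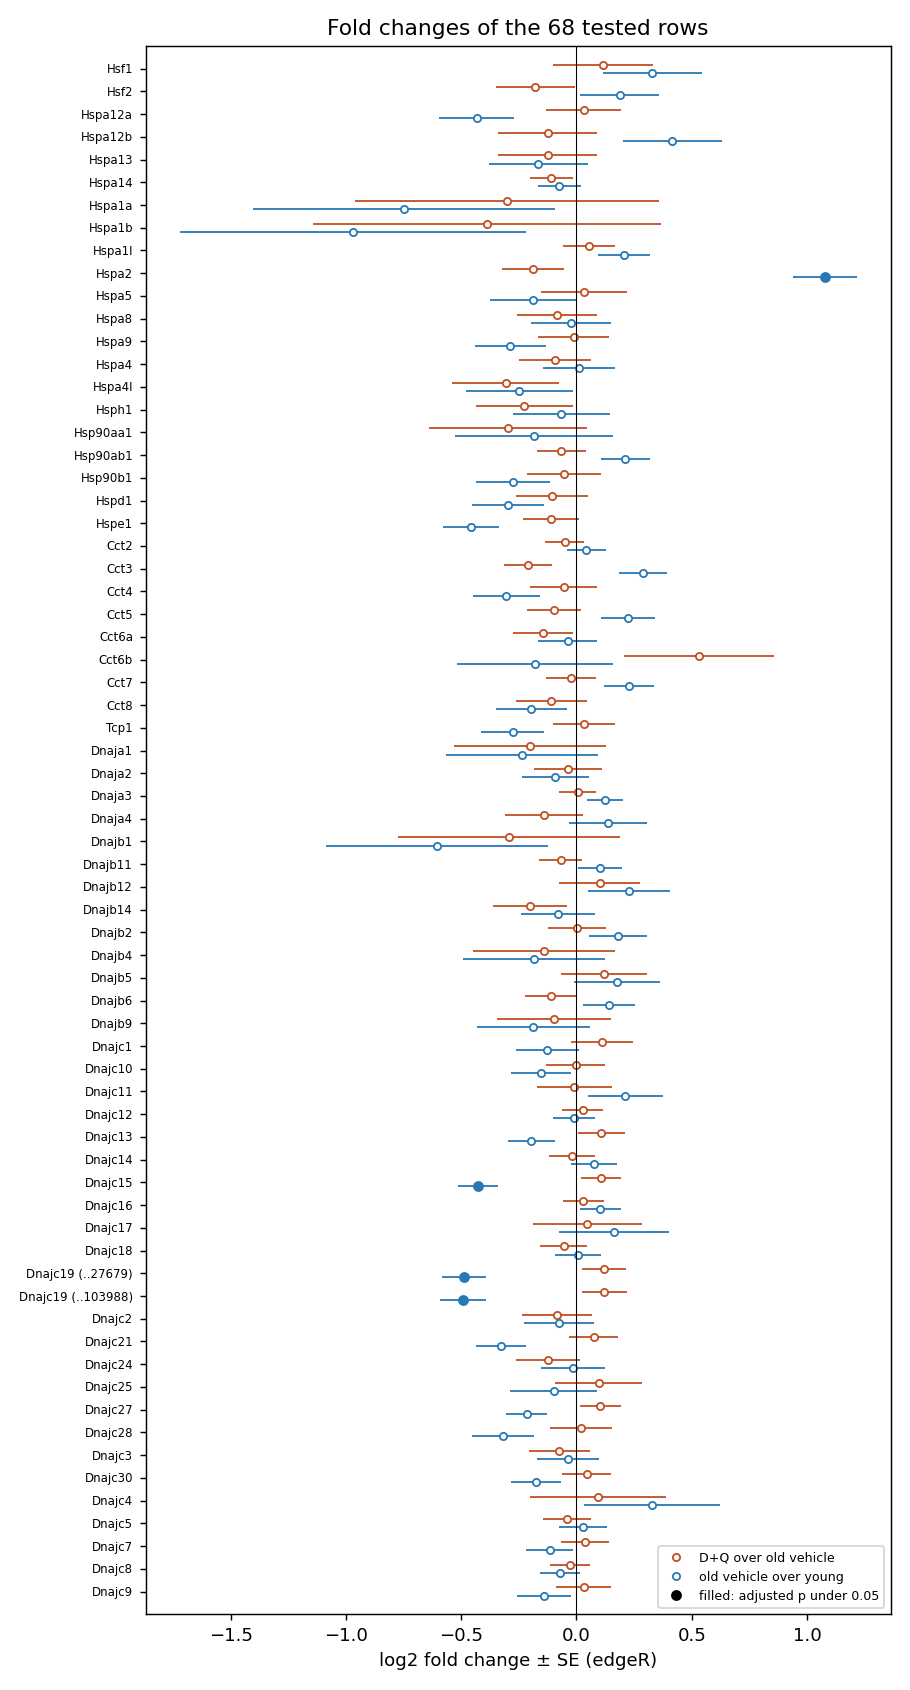
Log2 fold changes ± SE from edgeR for each of the 68 tested rows, ordered by role, for D+Q over old vehicle (orange) and old vehicle over young (blue); filled points had an adjusted p under 0.05. Only Hspa2 (1.08), the Dnajc19 pair (-0.49 each) and Dnajc15 (-0.43) are filled, all of them for old vehicle over young.

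D+Q muscle was also set against young muscle, a comparison that shares the young libraries with the first one and the D+Q libraries with the second. Hspa2 was called higher, 1.85-fold, with a log2 fold change of 0.89 ± 0.14 (SE, n = 4 each; edgeR adjusted p = 0.0111). It was the only call by edgeR, 1.47% of tested rows beside 0.526% of all tested genes called higher. DESeq2 called Hspa2 and also Hspe1, the Dnajc19 pair and Dnajc15, beside 610 of all 16146 tested genes. With upper-quartile scaling edgeR called Hspa2 and Hspe1, beside 154 of all tested genes, against 144 in the main fit. The call of Hspa2 held in 17 of 20 other settings. It ended when young replicates 3 and 4 were left out (edgeR adjusted p = 0.0927) and when only these groups were fitted. At an unadjusted p under 0.05, 12 rows passed, 17.6% beside 17.8% of all tested genes.

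Hspe1 came next for D+Q against young, 1.48-fold lower with a log2 fold change of -0.57 ± 0.12 (SE; edgeR adjusted p = 0.0512). Its D+Q libraries, 65.3 to 70.1 CPM, were all below its lowest young library of 85.1 CPM. For Dnajc19 the log2 fold change was -0.37 ± 0.10 (SE) on the longer row with an edgeR adjusted p of 0.10, and for Dnajc15 it was -0.32 ± 0.09 (SE) with an edgeR adjusted p of 0.112. Hspd1 gave -0.40 ± 0.16 (SE; edgeR adjusted p = 0.242). D+Q lay wholly above young for 1 row, Hspa2, 1.47% beside 2.86% of all tested genes. It lay wholly below for 6 rows, 8.82% beside 3.83%, namely Hspe1, the Dnajc19 pair, Dnajc15, Hspa12a and Hspa14, a ribosome-associated HSP70. Without young replicate 2, edgeR called 9 of 68 tested rows, beside 1935 of all 16314 genes tested in that setting. The rows were Hspa2, Dnajb12 and Hsf1 higher and Hspe1, Hspd1, the Dnajc19 pair, Dnajc15 and Hspa4l lower.

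Of the 6 inducible members, 5 varied more within groups than any other tested member. The pooled SD of log2(CPM + 0.1) within groups was 1.21 for Hspa1b, 1.09 for Hspa1a and 0.79 for Dnajb1, beside a median of 0.19 over the tested members and 0.28 over all tested genes. Hsp90aa1 and Dnaja1, a partner of Hspa8, followed at 0.56 and 0.55, while Hsph1, at 0.33, ranked 15 of 68. Without young replicate 4 the SD in young libraries was 0.80, against 1.69 with it, for Hspa1b, 0.74 against 1.43 for Hspa1a and 0.71 against 1.21 for Dnajb1. Within D+Q libraries the SD of Dnajb1 was 0.18. The family therefore joined the most variable and some of the steadiest transcripts, with Dnaja3, a mitochondrial J-domain protein, at 0.07. Hspa1a had 3.39, 11.5, 6.07 and 5.26 CPM in D+Q muscle, 10.6, 11.1, 2.44 and 8.11 CPM in old vehicle and 9.72, 5.84, 3.44 and 35.4 CPM in young libraries. Young replicate 4 was more than 3 times any other library, and the remaining libraries of the 3 groups overlapped.

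Hspa1b had 1.41, 6.97, 3.29 and 2.86 CPM in D+Q muscle, 6.64, 6.37, 1.87 and 4.08 CPM in old vehicle and 5.73, 2.45, 1.95 and 27.2 CPM in young libraries. Dnajb1 had 12.1, 14.7, 16.2 and 13.3 CPM in D+Q muscle, 19.3, 22.7, 8.75 and 18.1 CPM in old vehicle and 22.9, 13.4, 8.48 and 60.4 CPM in young libraries. Libraries kept much the same order from gene to gene. Young replicate 4 ranked the highest of 12 for Hspa1a, Hspa1b, Dnajb1, Hsp90aa1, Dnaja1 and Hsph1, while old vehicle replicate 3 ranked between 9 and 12 for the same genes. The high library decided the sign of the group difference. Hspa1a gave a log2 fold change of -0.75 ± 0.66 (SE) for old vehicle over young and 0.34 without young replicate 4, and Hspa1b gave -0.97 ± 0.75 (SE) and 0.48 without it, none of them called.

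**Figure D4:**
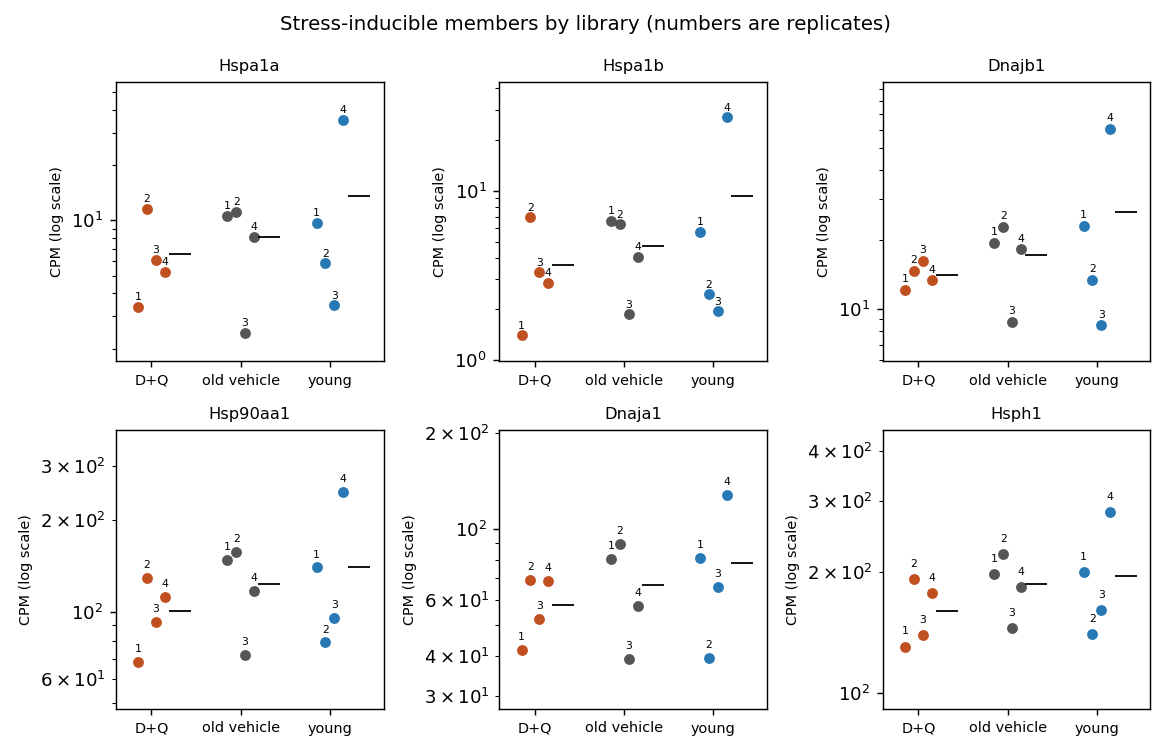
CPM (log axes) of 6 stress-inducible members in each library, numbered by replicate, with the group mean as a bar. Young replicate 4 is the highest of 12 libraries in every panel (35.4 CPM for Hspa1a), and old vehicle replicate 3 (2.44 CPM for Hspa1a) is among the lowest.

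Hspa1a and Hspa1b are near-identical neighbours on chromosome 17, from 34969190 to 34972156 and from 34956436 to 34959238, with 9951 bases between them. The counting settings are not given, so whether reads matching both genes were counted, and how they were shared out, is uncertain. The levels of both genes and their sum are uncertain to that extent. Promoter windows are shown for the inducible genes with a short motif match, in capitals, to be set beside the Hspa2 window. Of the inducible genes not shown, Dnajb1 held neither form and Hsp90aa1 had no window. The short form was present in 12.1% of all windows, so most windows lack it, as that of Hspa2 does. The Hspa1a and Hspa1b windows, on chr17:34972157-34972406 and chr17:34959239-34959488, minus strand, differ at 3 of 250 bases and carry the match in the same place.
Hspa1a: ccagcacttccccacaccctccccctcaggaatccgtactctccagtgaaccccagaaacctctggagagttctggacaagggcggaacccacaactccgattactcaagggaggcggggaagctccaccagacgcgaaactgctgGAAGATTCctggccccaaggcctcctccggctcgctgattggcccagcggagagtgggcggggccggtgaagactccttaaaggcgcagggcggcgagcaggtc
Hspa1b: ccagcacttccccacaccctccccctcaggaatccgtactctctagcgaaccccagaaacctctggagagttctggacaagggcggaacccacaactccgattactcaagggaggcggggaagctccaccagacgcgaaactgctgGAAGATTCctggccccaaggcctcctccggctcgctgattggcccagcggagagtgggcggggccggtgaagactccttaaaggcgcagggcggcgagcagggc
Hsph1: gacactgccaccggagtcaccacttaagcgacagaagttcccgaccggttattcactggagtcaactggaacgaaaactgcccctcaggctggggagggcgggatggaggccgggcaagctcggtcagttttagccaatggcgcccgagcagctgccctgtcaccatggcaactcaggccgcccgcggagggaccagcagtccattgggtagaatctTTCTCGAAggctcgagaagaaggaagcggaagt
Dnaja1: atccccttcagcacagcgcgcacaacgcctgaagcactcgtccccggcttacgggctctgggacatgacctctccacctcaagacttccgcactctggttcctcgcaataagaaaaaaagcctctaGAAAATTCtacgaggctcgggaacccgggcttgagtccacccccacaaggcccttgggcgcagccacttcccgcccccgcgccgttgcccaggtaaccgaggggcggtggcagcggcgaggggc
Hsph1, the inducible HSP110 and exchange factor of HSP70, is shown on chr5:149636337-149636586, minus strand, with its match beginning 33 bases before the start. Dnaja1 is shown on chr4:40722218-40722467, plus strand, with its match 124 bases before the start. Both Hspa1 genes have the match 104 bases before the start. The RefSeq starts of Hsph1 and Dnaja1 lie 40 and 318 bases inside the listed genes, so their matches also lie inside the listed genes.

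Hsph1 had 130, 192, 139 and 177 CPM in D+Q muscle, 198, 221, 145 and 183 CPM in old vehicle and 199.95, 140, 161 and 281 CPM in young libraries. Dnaja1 had 41.8, 69.0, 52.1 and 68.5 CPM in D+Q muscle, 80.2, 89.3, 39.0 and 57.5 CPM in old vehicle and 81.1, 39.3, 65.9 and 127 CPM in young libraries. Hsp90aa1 had 68.4, 129, 92.5 and 112 CPM in D+Q muscle, 148, 157, 72.1 and 117 CPM in old vehicle and 140, 79.2, 95.4 and 247 CPM in young libraries. In each of these genes the 4 highest libraries were old vehicle replicates 1 and 2 and young replicates 1 and 4. Without young replicate 4 the log2 fold changes of old vehicle over young were 0.16 for Hsph1, 0.10 for Dnaja1 and 0.24 for Hsp90aa1, against -0.07, -0.24 and -0.18 with it, and none was called.

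The same library was high across most of the family. Young replicate 4 was the highest of 12 for 39 of 68 tested rows, 57.4% beside 24.6% of all tested genes, and D+Q replicate 1 was the lowest for 26 rows, 38.2% beside 13.9% of all tested genes. The exceptions to the pattern included Hspa2, lowest in young replicate 4, and Hsf1, also lowest there. The 7 immediate early genes, which tissue handling and activity raise, summed to 254 CPM in D+Q replicate 1, to 64.15 CPM in D+Q replicate 4, the lowest of 12, to 76.35 CPM in old vehicle replicate 3 and to 575 CPM in young replicate 4, the highest of 12. Fos was highest in young replicate 4, at 223 CPM, but Egr1 was highest in old vehicle replicate 2, at 94.9 CPM, with 50.6 CPM in young replicate 4. Young replicate 4 also had the lowest sums of endothelial markers (271 CPM) and of muscle fibre markers (78790 CPM) and the highest of fibroblast and tendon markers (1006 CPM). D+Q replicate 1 had the highest muscle fibre sum, 137700 CPM. The members highest in young replicate 4 had a median transcript GC content of 45.6% (n = 37) and those lowest in it 55.7% (n = 6), beside 47.4% over the 66 members with a value. For D+Q replicate 1 the order was the other way, 55.9% (n = 4) for members highest there and 46.8% (n = 25) for those lowest there. The latter ran from 39.0% to 58.1%. The inducible members, all highest in young replicate 4, were spread. Hspa1a had 59.0%, Hspa1b 58.1%, Dnajb1 52.7%, Hsph1 47.4%, Hsp90aa1 43.7% and Dnaja1 41.2%. The part of handling, cell makeup and GC content in these levels was not tested.

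**Figure D5:**
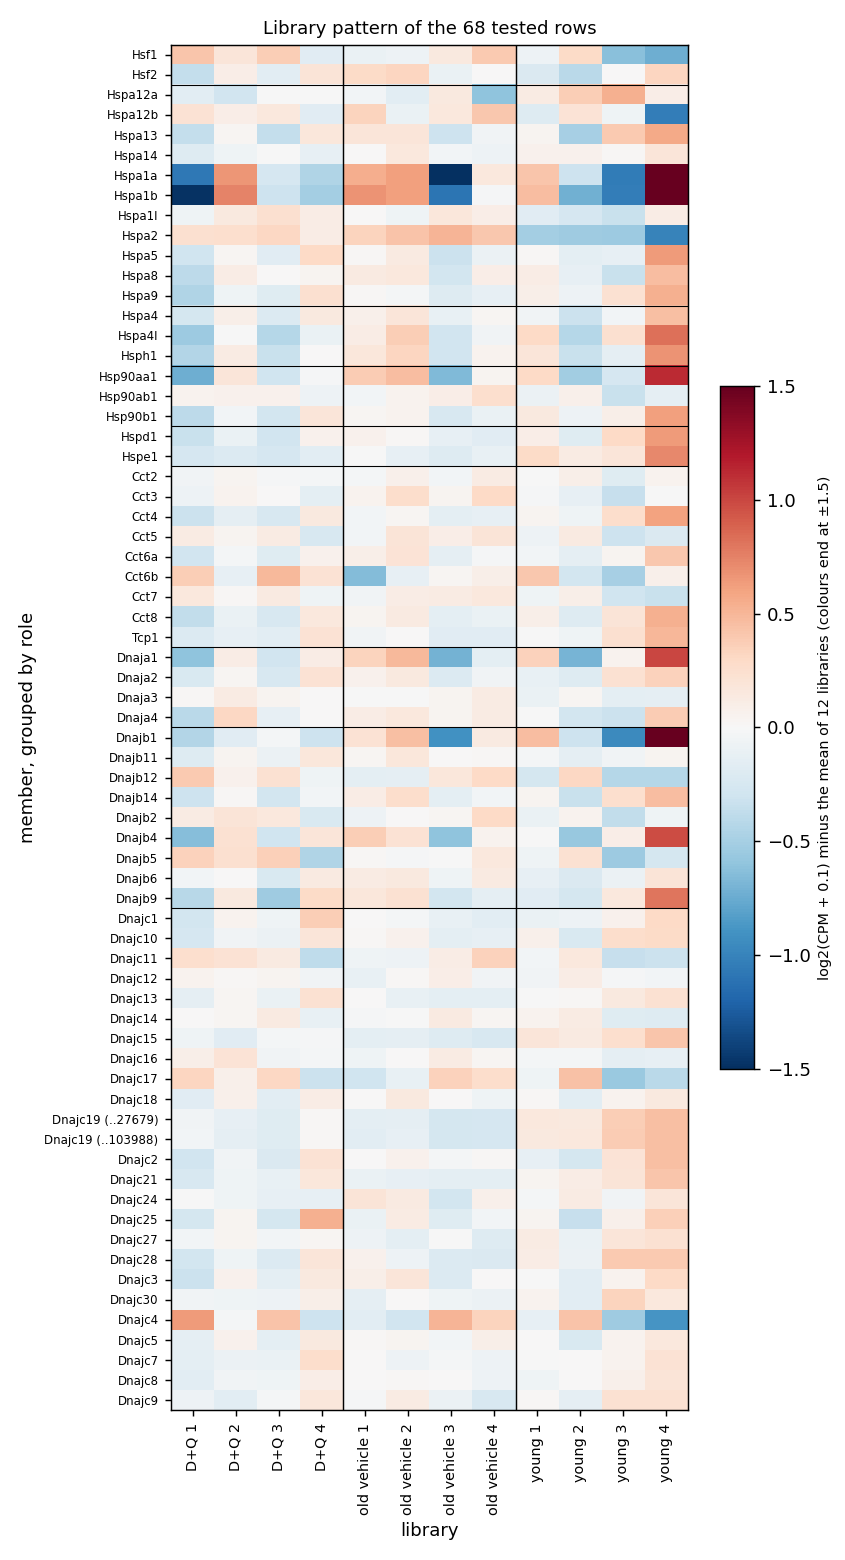
Colour shows log2(CPM + 0.1) minus the mean of 12 libraries for each of the 68 tested rows (down the page, by role) in each library (across), with colours ending at ±1.5. Young replicate 4 is red in most rows, as the highest library of 39 rows, and D+Q replicate 1 is blue in many, as the lowest of 26.

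Ratios between partners were also taken within each library. The ratio of Hspd1 to Hspe1 on the RPKM scale was 2.67 ± 0.259 in D+Q, 2.67 ± 0.146 in old vehicle and 2.38 ± 0.301 in young libraries (SD, n = 4). The ratio of Hspa5 to Hspa8 was 0.200 ± 0.0272 in D+Q, 0.185 ± 0.00954 in old vehicle and 0.207 ± 0.0216 in young libraries. The summed Hspa1a and Hspa1b stood at 0.00879 ± 0.00419 of Hspa8 in D+Q, 0.0104 ± 0.00429 in old vehicle and 0.0164 ± 0.0156 in young libraries. The highest young ratio was 0.0394, and without it the young mean was 0.00867. These ratios overlapped between all groups and are given as a description.

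The partners of the large chaperones were described from 5 lists. None of 33 cochaperones of HSP70 and HSP90, such as Bag1, Stip1 and Unc45b, was called in any of the 3 comparisons by edgeR, although 2 for old vehicle against young and 4 for D+Q against young had an unadjusted p under 0.05 (0 for D+Q against old vehicle). These are 6.06% and 12.1% of the list, beside 16% and 17.8% of all tested genes. None of 9 prefoldin subunits and TRiC helpers, 19 endoplasmic reticulum folding genes or 8 genes of mitochondrial protein quality control was called by edgeR in any comparison either. At an unadjusted p under 0.05, old vehicle against young had 2, 4 and 1 genes in these lists (22.2%, 21.1% and 12.5%), D+Q against old vehicle had 0 in each, and D+Q against young had 2, 3 and 0 (22.2%, 15.8% and 0%). Their medians for old vehicle over young were 0.05 for the cochaperones, -0.09 for prefoldin and helpers, 0.04 for the endoplasmic reticulum list and 0.24 for mitochondrial quality control, beside -0.01 over all tested genes.

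The list of small heat shock proteins with Bag3 differed in its counts. All 8 of its genes had positive fold changes for old vehicle over young, with a median of 0.71, and 1 of them, Hspb8, was called higher, 12.5% beside 1.21% of all tested genes. At an unadjusted p under 0.05 the list had 8 of 8 genes for old vehicle against young (100% beside 16% of all tested genes), 1 for D+Q against old vehicle (12.5% beside 2.16%) and 6 for D+Q against young (75% beside 17.8%). Hspb8, the partner of Bag3 in clearing damaged filament proteins, had 804, 719, 622 and 481 CPM in D+Q muscle, 797, 1080, 889 and 964 CPM in old vehicle and 427, 450, 397 and 434 CPM in young libraries. All old libraries lay above all young ones, and D+Q overlapped old vehicle. The log2 fold change was 1.13 ± 0.15 (SE; edgeR adjusted p = 0.00234) for old vehicle over young, 0.62 ± 0.15 (SE; edgeR adjusted p = 0.0717) for D+Q over young and -0.51 ± 0.15 (SE; unadjusted p = 0.00450, edgeR adjusted p = 0.9999) for D+Q over old vehicle. For D+Q over young, DESeq2 called Hspb8 (DESeq2 adjusted p = 0.00773). So did edgeR without young replicate 2 and without D+Q replicate 4 (edgeR adjusted p = 0.0375 and 0.0180). Over all genes these settings gave 610, 1935 and 145 calls. The other 7 genes were not called by edgeR in any comparison. Cryab, among them, had a log2 fold change of 1.04 ± 0.26 (SE; edgeR adjusted p = 0.0678) for old vehicle over young.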

How the data were processed

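Quadriceps RNA was sequenced from a stranded mRNA kit, per the labels' protocols. The submitters' processing notes name the mm10 build, featureCounts 1.5.1, Subread and STAR 2.6.1c, with settings not given in the sources used here. Every test used the whole-number read counts the authors deposited, and levels between genes and ratios used the deposited RPKM; RPKM columns could be tied to groups but not to libraries.

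In R 4.3.3, edgeR 4.0.16 kept genes by filterByExpr (minimum count 10, total 15), scaled libraries by TMM and fitted 1 quasi-likelihood model of 3 group means, tested on simulated data first. Calls are at a Benjamini-Hochberg adjusted p under 0.05 over all tested genes. The edgeR SE is the size of the log2 fold change over the square root of F. Other settings were DESeq2 1.42.0, limma-voom 3.58.1, other scaling, no filter, fits of 2 groups, a replicate block, and leaving out each library. Between libraries of 1 group the chi-square per gene was 19.7 to 297, and all 12 were kept as separate. Members, lists and the rule for named genes (called members, the 6 smallest p per comparison, a fixed set, and the most abundant of each role) were chosen with earlier results of these data known.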

Additional observations from a re-analysis of the deposited data

Results flagged for a closer look

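Each group of 4 libraries of 39 named rows was searched for a library far from the other libraries of its group, 114 groups in all once Dnajb8, with 0 reads throughout, was left aside, and 8 were found. Chance alone marks about 1 in 20 such groups. In young libraries, replicate 4 was far above the others for Hspa5 (515 CPM, the next 333 CPM) and Hspa1b (27.2 CPM, the next 5.73 CPM), and below them for Hspa2 (2.10 CPM, the next 2.91 CPM). In old vehicle libraries, replicate 3 was below the others for Hspa8 (1363 CPM, the next 1772 CPM) and Dnajb6 (83.5 CPM, the next 95.1 CPM). In D+Q libraries, replicate 4 was above the others for Tcp1 (378 CPM, the next 297 CPM) and Dnajc7 (169 CPM, the next 132 CPM), and below them for Hsp90ab1 (1909 CPM, the next 2102 CPM). D+Q replicate 4 also had the highest summed neutrophil markers, 20.0 CPM against 0.827 to 1.55 CPM in the other D+Q libraries, and the part of those cells in these values was not tested.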

How the results depend on the processing

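With 4 libraries a group, low counts and wide within-group spread limit what could be seen: Hspa1b, Hspa1a and Dnajb1 had the widest errors, and 9 listed members were too low to test. For old vehicle against young 4 members were called, and 1 (Hspa2) with no filter on low counts, in the 2-group fit, with the replicate block and with young replicates 3 and 4 both left out, a setting chosen after seeing the data; leaving out 1 library gave 1 to 6 members. For D+Q against young 1 member was called, 5 by DESeq2, 2 with upper-quartile scaling, 0 in the 2-group fit, with the replicate block and with young replicates 3 and 4 left out, and 1 to 9 leaving out 1 library. For D+Q against old vehicle every setting called 0 members. Over all genes, old vehicle against young gave 300 calls, 778 in DESeq2, 188 in the 2-group fit, 141 with the replicate block, 80 without young replicates 3 and 4 and 1022 without young replicate 2; D+Q against young gave 144, and 610, 25, 35, 15 and 1935 in the same settings. Some of these fits hold fewer samples or genes, and the cause of the differences was not tested. Libraries with the same replicate number did not deviate together in every pair, with correlations from -0.428 to 0.432. These values, from 4 libraries a group, cannot decide whether the numbers pair samples. With the replicate block Hspa2 gave a log2 fold change of 0.90 for D+Q over young and was not called.

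The median log2 fold change of the tested members was -0.079 for old vehicle over young, 0.030 without young replicates 3 and 4, and -0.19 to 0.058 leaving out 1 library. For D+Q over old vehicle it was -0.046, and -0.096 to -0.012 leaving out 1 library. For D+Q over young it was -0.11, and 0.020 without young replicates 3 and 4 and -0.20 to -0.0046 leaving out 1 library.

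Signs were followed by setting for 38 tested members, those named by the rule, and for Hspb8, and not for the other 30 tested members. None called in the comparison concerned changed sign. Among the 38, the log2 fold changes of uncalled members that did so without young replicates 3 and 4 were, for old vehicle over young, Hspa5 (0.011), Hspa4l (0.070), Dnajb14 (0.19), Dnajb4 (0.31), Dnaja1 (0.14), Dnajb5 (-0.051), Cct6a (0.13), Hsph1 (0.14), Dnaja2 (0.15), Hspa8 (0.038), Cct2 (-0.0077), Dnajb9 (0.23), Hsp90aa1 (0.17), Dnajc3 (0.099), Hsf1 (-0.012), Hspa1b (0.22) and Hspa1a (0.057). For D+Q over young they were Hspa5 (0.043), Dnajc5 (0.097), Dnajb4 (0.17), Dnaja2 (0.12), Dnaja4 (0.10), Hspa4 (0.14), Dnajb9 (0.13) and Dnajc3 (0.025). Under upper-quartile scaling they were for old vehicle over young Dnajc5 (-0.0043) and Hspa4 (-0.016), and for D+Q over old vehicle Dnajb2 (-0.00075), and for D+Q over young Dnajb6 (-0.0018) and Hsf2 (-0.022). Dnajb2, for D+Q over old vehicle, changed sign in DESeq2 and with RLE scaling (-0.0086 each) and with no filter (-0.011). Hsf2, for D+Q over young, did so in DESeq2 and with RLE scaling (-0.0057 each), with no filter (-0.0058) and in the 2-group fit (-0.0060), and Dnaja4 did so in limma-voom (7.5e-05).

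Leaving out 1 library turned the sign of uncalled estimates among the same 38 members, given here as lowest to highest. For old vehicle over young they were Hspa5 (-0.29 to 0.030), Dnajc5 (-0.066 to 0.083), Dnajb14 (-0.23 to 0.046), Dnajb4 (-0.39 to 0.18), Dnaja1 (-0.48 to 0.10), Cct6a (-0.12 to 0.086), Hsph1 (-0.22 to 0.16), Dnajb1 (-0.90 to 0.21), Dnaja2 (-0.20 to 0.0086), Hspa8 (-0.13 to 0.14), Cct2 (-0.012 to 0.066), Hspa4 (-0.11 to 0.18), Cct6b (-0.32 to 0.082), Dnajb9 (-0.33 to 0.091), Hsp90aa1 (-0.40 to 0.24), Dnajc3 (-0.12 to 0.053), Hspa1b (-1.31 to 0.48) and Hspa1a (-1.07 to 0.34). For D+Q over old vehicle they were Dnajb2 (-0.043 to 0.089), Hspa5 (-0.093 to 0.11), Dnajc5 (-0.099 to 0.0032), Dnaja2 (-0.13 to 0.025), Hspa8 (-0.17 to 0.010), Hsp90b1 (-0.17 to 0.023), Dnajc7 (-0.069 to 0.077), Dnajb9 (-0.25 to 0.027), Dnajc21 (-0.011 to 0.13), Tcp1 (-0.073 to 0.074) and Hspa9 (-0.14 to 0.085). For D+Q over young they were Hspa5 (-0.28 to 0.062), Dnajc5 (-0.11 to 0.043), Dnajb4 (-0.54 to 0.044), Dnajb6 (-0.052 to 0.12), Hspa8 (-0.22 to 0.058), Dnaja4 (-0.14 to 0.16), Hsf2 (-0.12 to 0.16), Cct2 (-0.062 to 0.013), Hspa4 (-0.21 to 0.088), Hspa1b (-1.89 to 0.094) and Hspa1a (-1.47 to 0.043).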
